A study of Mus musculus with 69 samples.

Results

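The LIF and STAT3 pathway was followed through 8 genes: the receptor chains Lifr and Il6st, the kinase Jak1, the transcription factor Stat3, and its targets Socs3, Pim1, Pim3 and Gbx2. They were taken by symbol from the table of mRNA-seq read counts, where all 8 were found among 16263 genes, and all 8 passed the filter on low counts that left 14061 genes for testing. The cells were J1 mouse embryonic stem cells (ESCs), a line of 129S4/SvJae background from the inner cell mass of the blastocyst. The comparison was of WT ESCs with Mut18 and Mut43, clones carrying H3.3K27R, in which CRISPR-Cas9 editing of H3f3a and H3f3b replaced lysine 27 of histone H3.3 by arginine, a residue that cannot be acetylated. Every line contributed 2 mRNA-seq and 2 ATAC-seq libraries, and each clone is 1 edited line, so that the substitution and other differences of an edited line from WT cannot be told apart. All lines had been grown in standard ES medium on feeder cells and were then passaged without feeders before harvest.

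Leukemia inhibitory factor (LIF) binds a receptor of LIFR and gp130, the product of Il6st, and the JAK kinases attached to these chains phosphorylate STAT3. STAT3 then moves to the nucleus and switches on genes that hold mouse ESCs in self-renewal, along with Socs3, whose product shuts the receptor down. Transcript levels do not measure phosphorylation of STAT3, and the counts therefore describe the amounts of pathway transcripts and not the activity of the pathway.

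STAT dimers recognize palindromes, and the sequences of the best matches at these genes are given first to show where such letters occur at these genes. The motif TTCCNGGAA was searched in the ATAC-seq peak regions within 10 kb of each gene on both strands, which for a palindrome are the same letters, and was found near Socs3, Lifr and Gbx2. The looser TTCNNNGAA, which includes every TTCCNGGAA, added Jak1 and Pim3, whereas no region of Stat3, Il6st or Pim1 held either form. The sites are written 5′ to 3′ on the plus strand of GRCm38 (mm10) with the motif in capitals. Both Socs3 sites of the strict form, the Lifr and Gbx2 sites, and the nearest loose site of Pim3 are shown so that targets and receptor can be read side by side.
Socs3 promoter site, chr11:117969229-117969257: cgccccccgaTTCCTGGAActgcccggcc
Socs3 distal site, chr11:117962613-117962641: gaaattccctTTCCAGGAAgagcggaagc
Lifr intronic site, chr15:7115507-7115535: tggggagagaTTCCAGGAAatgaaacaac
Gbx2 flanking site, chr1:89935879-89935907: tgtgaaggccTTCCTGGAAgccgtgaaga
Pim3 flanking site, chr15:88867675-88867703: cccagtgaaaTTCTGAGAActctccaggg
The Socs3 promoter site lay in an annotated intron 57 bp from the nearest start and 43 bp from the summit of a peak present in all 6 ATAC-seq libraries. The Lifr site lay in an intron, 9 bp from the summit of a peak also present in all 6 libraries. The Gbx2 site lay between genes in a peak listed only in WT_1, and the Pim3 and distal Socs3 sites lay between genes in peaks of all 6 libraries. Of 89575 windows of 300 bp around the summits of all peak regions, 1.13% held the strict and 7.43% the loose motif. The matches above were sought in whole peak regions, of up to 1288 bp, so these shares are not a like-for-like background. A match is a description of letters and shows no binding. The absence of one says only that these letters were not in these regions.

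Lifr, which encodes the LIF-binding chain, showed the largest rise of the 8 genes (chr15:7090614-7197489, plus strand). Its normalized counts, which are read counts scaled to a common library size by TMM, were 1143 and 1074 in the WT libraries, 1539 and 1744 for Mut18, and 1838 and 1823 for Mut43. Every mutant library lay above both WT libraries. The log2 fold change of mutants over WT was 0.65 ± 0.06 (SE, n = 4 against 2, edgeR adjusted p = 3.01e-08), a 1.57-fold increase. It was 0.57 in Mut18 and 0.72 in Mut43, and the difference of Mut18 from Mut43 of -0.16 (95% confidence interval -0.27 to -0.04) had an unadjusted p of 0.00845 in edgeR that did not pass adjustment over all genes (adjusted p = 0.347).

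Il6st, the gene of the shared signal-transducing chain gp130, rose less (chr13:112464070-112510086, plus strand). Its counts were 1035 and 965 in WT, 1143 and 1175 for Mut18, and 1162 and 1158 for Mut43, again without overlap of WT and mutants. This was a log2 fold change of 0.21 ± 0.05 (SE, edgeR adjusted p = 0.000952), or 1.16-fold. The receptor chains thus did not move by equal amounts: the ratio of Lifr to Il6st counts was 1.10 and 1.11 in the WT libraries and 1.35 to 1.58 in the mutants. This ratio rose 1.35-fold, with an exact two-sided permutation p of 0.0667, the smallest that 2 against 4 libraries allow.

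Jak1, the kinase bound to gp130, fell (chr4:101152367-101265282, minus strand). Counts were 850.4 and 794 in WT, 701 and 698 for Mut18, and 728 and 705 for Mut43. It changed by -0.22 ± 0.06 on the log2 scale (SE, edgeR adjusted p = 0.0032), and both WT libraries lay above all mutants. Without WT_1 the change was -0.16 and did not pass (edgeR adjusted p = 0.081). The opposite-strand gene Raver2 overlaps Jak1 and had 347 to 363 normalized counts in WT against 178 to 238 in mutants (log2 fold change -0.76). The strand setting of the counting is not given in the sources used here, so reads from the shared stretch cannot be assigned between these genes.

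Stat3, the transcription factor of the pathway, rose in both clones (chr11:100885098-100939540, minus strand). Its counts were 1859 and 1734 in WT, 2188 and 2212 for Mut18, and 2179 and 2297 for Mut43. The mutant libraries were all higher than WT and nearly level with each other. The log2 fold change was 0.30 ± 0.04 (SE, edgeR adjusted p = 1.00e-05), or 1.24-fold, with 0.29 in Mut18 and 0.32 in Mut43.

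**Figure D1:**
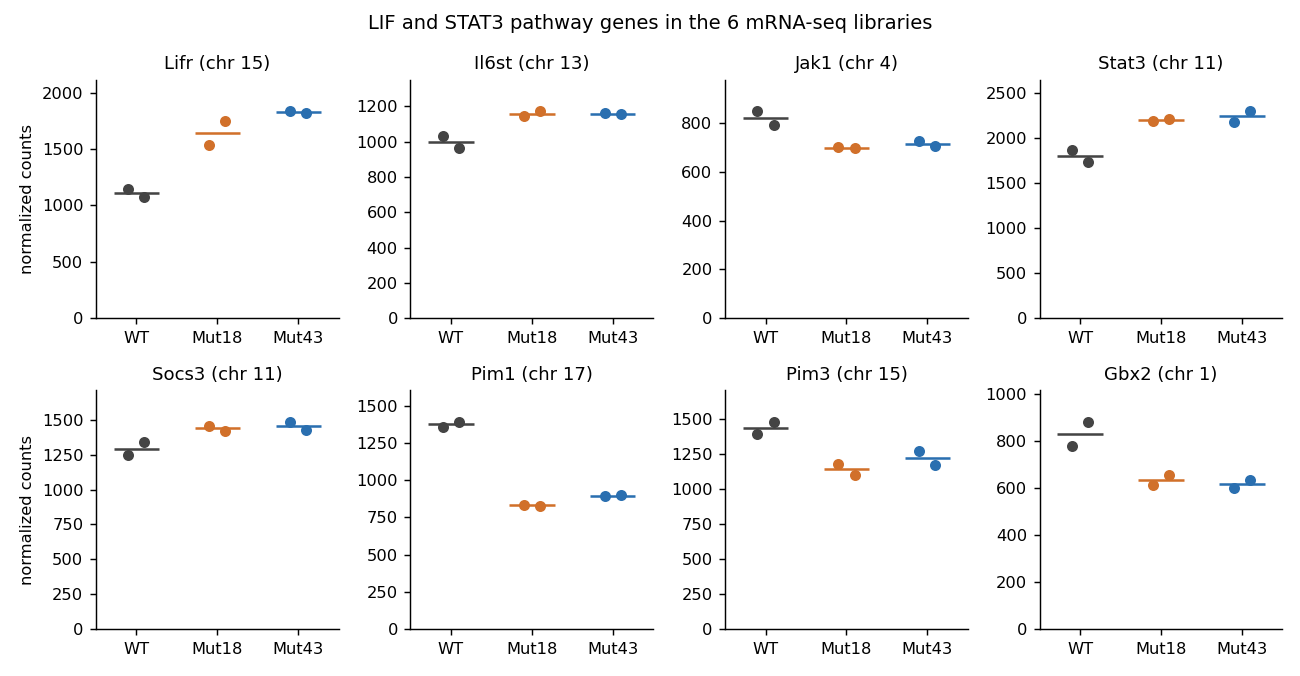
Normalized counts of the 8 genes (vertical axes, from 0) in the WT, Mut18 and Mut43 libraries, with 1 point a library and a bar at the mean of each line. WT and mutant libraries do not overlap for any of the 8 genes, with Lifr, Il6st, Stat3 and Socs3 higher and Jak1, Pim1, Pim3 and Gbx2 lower in the mutants.

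The 4 targets did not follow Stat3 as a group. Socs3, the feedback inhibitor of gp130 and JAK signaling, rose slightly (chr11:117966079-117970047, minus strand). Counts were 1248 and 1340 in WT, 1456 and 1421 for Mut18, and 1488 and 1428 for Mut43, so that the gap between the highest WT and the lowest mutant library was narrow. The change on the log2 scale was 0.16 ± 0.05 (SE, edgeR adjusted p = 0.00621), and without WT_1 it was 0.12 and did not pass (edgeR adjusted p = 0.149).

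Pim1, a serine/threonine kinase gene that responds quickly to cytokines, had the largest fall (chr17:29490753-29496112, plus strand). Its counts were 1362 and 1396 in WT, 832 and 830.4 for Mut18, and 895 and 900.1 for Mut43. The libraries of a line were close together, and the mutants stood far below WT. The log2 fold change was -0.67 ± 0.05 (SE, edgeR adjusted p = 8.32e-10), which leaves the mutants at 0.627 of the WT level.

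Pim3, the related kinase gene, fell by less (chr15:88862186-88865726, plus strand). It had 1395 and 1482 counts in WT, 1181 and 1097 for Mut18, and 1269 and 1172 for Mut43. The log2 fold change was -0.29 ± 0.05 (SE, edgeR adjusted p = 0.000128), and the ratio of Pim1 to Pim3 went from 0.942 and 0.976 in WT to 0.704 to 0.768 in the mutants (exact permutation p = 0.0667, the smallest possible).

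Gbx2, a homeobox gene that acts downstream of LIF and STAT3 in ESC self-renewal, also fell (chr1:89927956-89931179, minus strand). Its counts were 781 and 884 in WT, 613 and 655 for Mut18, and 599 and 634 for Mut43. Both WT libraries lay above all mutants, although they differed from each other more than the libraries of either clone did. The log2 fold change was -0.41 ± 0.06 (SE, edgeR adjusted p = 1.63e-05).

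In all, 4 of the 8 genes rose and 4 fell at an adjusted p under 0.05. The share of all tested genes called in this comparison was 48.0%, of which 23.5% were higher and 24.5% lower in the mutants, so that a call by itself was common in these data. None of the 8 passed the additional limit of a 2-fold change, which 8.93% of tested genes did. WT and mutant libraries did not overlap for any of the 8, as was the case for 59.8% of tested genes. The median size of the log2 change was 0.30 over the 8 genes and 0.23 over all tested genes, which places the pathway genes only a little above the typical gene. Each clone by itself gave the same split of 4 higher and 4 lower against WT, where 41.3% of tested genes were called in Mut18 (20.3% higher, 21.0% lower) and 46.8% in Mut43 (22.9% higher, 23.9% lower). By DESeq2 and without WT_1 the split was 3 higher and 3 lower in each clone, since Socs3 (DESeq2 adjusted p = 0.113 in Mut18 and 0.0588 in Mut43) and Jak1 (0.0691 and 0.131) did not pass. The clones share the WT libraries, so these are not separate replications. Between Mut18 and Mut43 edgeR called none of the 8 (background 0.327%), DESeq2 called none either, and at an unadjusted p under 0.05 edgeR called 1, Lifr (background 8.52%).

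**Figure D2:**
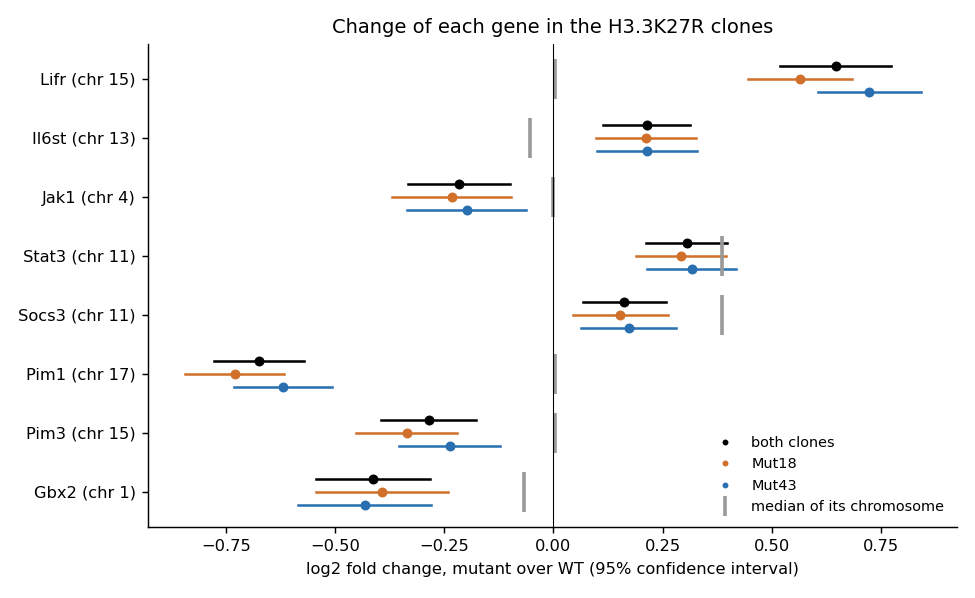
Log2 fold change of mutants over WT (horizontal axis) for each gene, with 95% confidence intervals, in black for both clones together and in color for each clone, and a gray bar at the median log2 change of genes on the same chromosome. Stat3 and Socs3 lie on chromosome 11, where that median was 0.39, and both sit left of it, whereas the bars of the other chromosomes lie near 0.

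Stat3 and Socs3 share chromosome 11, whose genes were higher in both clones as a body, and their changes have to be read against that level. The median log2 change of 935 chromosome 11 genes that averaged 50 or more normalized counts was 0.39, against -0.01 for 9700 genes of the other autosomes, whose chromosome medians ran from -0.07 to 0.07. Stat3 was 0.08 below the chromosome 11 median in log2 change, at percentile 36.6 of the chromosome. Socs3 was 0.22 below, at percentile 20.1. The Stat3 change of 0.30 was exceeded by 63.3% of chromosome 11 genes but by 11.2% of genes on the other autosomes. Without WT_1 the distance of Stat3 from the median was -0.01, and without WT_2 it was -0.14, so its size rests on which WT library is kept, with Stat3 below the median both times. Whether the rise of Stat3 is part of that of its chromosome was not tested.

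The tested neighbors of Stat3 did not pass. Stat5a, which overlaps the end of Stat3 on the opposite strand, had 25.4 and 29.4 normalized counts in WT and 34.0 to 38.4 in mutants (log2 fold change 0.40, edgeR adjusted p = 0.148). Ptrf, on the other side, had a log2 fold change of -0.10 (edgeR adjusted p = 0.314). The remaining 6 genes can be set against their own chromosomes in the same way: Lifr stood at percentile 96.3 of chromosome 15 and Il6st at 89.1 of chromosome 13. Jak1 was at 20.4 of chromosome 4, Pim3 at 16.9 of chromosome 15 and Gbx2 at 17.2 of chromosome 1. Pim1 was the most extreme of the falling genes, at 5.89 of chromosome 17.

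**Figure D3:**
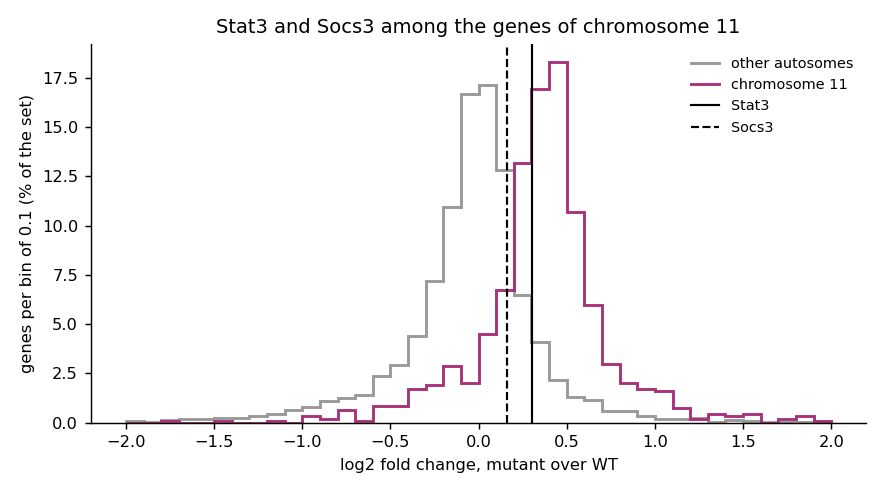
Distribution of log2 fold change of mutants over WT (horizontal axis, bins of 0.1) for genes of chromosome 11 and of the other autosomes, as a percentage of each set (vertical axis), with Stat3 and Socs3 as vertical lines. Stat3 at 0.30 falls left of the middle of the chromosome 11 distribution and in the upper flank of the other autosomes, and Socs3 at 0.16 falls further left.

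Stat3 was then compared with each target within the same library, where the scaling between libraries cancels. The ratio of Stat3 to Pim1 was 1.36 and 1.24 in WT, 2.63 and 2.66 for Mut18, and 2.43 and 2.55 for Mut43, a 1.97-fold rise. The ratio of Stat3 to Gbx2 was 2.38 and 1.96 in WT against 3.37 to 3.63 in mutants, a 1.64-fold rise. The ratio of Stat3 to Pim3 was 1.33 and 1.17 in WT against 1.72 to 2.01 in mutants, a 1.51-fold rise. All 4 mutant libraries exceeded both WT libraries for these 3 targets, none of which lies on chromosome 11. Each had an exact two-sided permutation p of 0.0667, the smallest that 15 splits allow, and 0.0889 after Benjamini-Hochberg adjustment over the 4 targets, so the design could not reach 0.05. Against the mean log2 level of Pim1, Pim3 and Gbx2, Stat3 rose 1.70-fold.

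Socs3 differed from the other targets. The ratio of Stat3 to Socs3 was 1.49 and 1.29 in WT, 1.50 and 1.56 for Mut18, and 1.46 and 1.61 for Mut43, so that WT and mutant libraries overlapped. It was 1.10-fold higher in mutants on average (exact permutation p = 0.133, also 0.133 adjusted over the 4 targets). This log2 difference of 0.14 was 0.04 without WT_2 and 0.24 without WT_1. The ratio of Socs3 to Pim1 went from 0.916 and 0.96 in WT to 1.59 to 1.75 in mutants, a 1.79-fold rise (exact permutation p = 0.0667). As Socs3 was higher and Pim1 lower in every mutant library, this separation also follows from the counts given above.

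**Figure D4:**
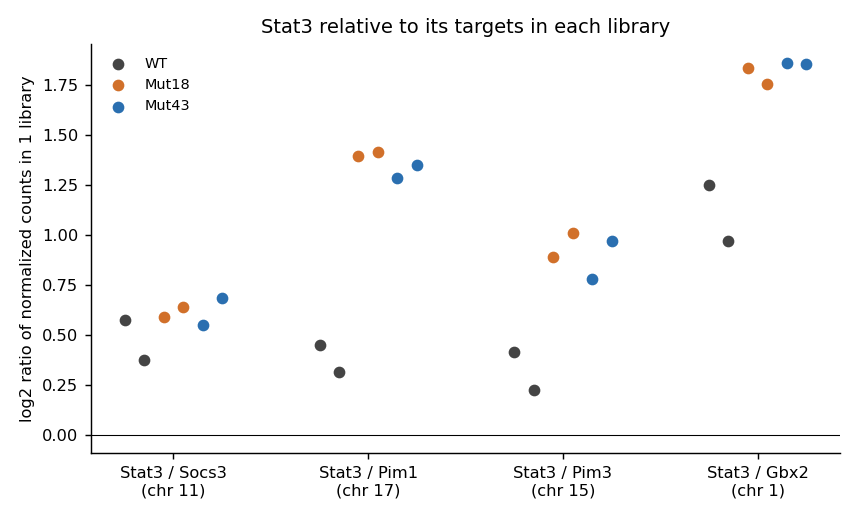
Log2 ratio of Stat3 to each target within a library (vertical axis) for Socs3, Pim1, Pim3 and Gbx2, with 1 point a library. The 4 mutant libraries lie above both WT libraries for Pim1, Pim3 and Gbx2, and WT_1 lies among the mutants for Socs3.

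Levels of different genes were compared as CPM per kilobase of merged exons, on a scale common to all libraries. CPM are the normalized counts divided by the mean library size and multiplied by a fixed factor. The values are therefore smaller than normalized counts per kilobase, by the same factor for every gene and library. In WT ESCs the order was Pim3 (39.4), Socs3 (29.7), Pim1 (27.2), Gbx2 (25.4), Stat3 (12.5), Jak1 (7.55), Lifr (6.83) and Il6st (5.98), where Pim1 and Gbx2 overlapped and all other neighbors in the order were separated in both libraries. The targets were thus above Stat3, and Stat3 was above the receptor chains and Jak1. In Mut18 Socs3 led at 33.0 and Pim3 followed at 31.2, while Gbx2 (19.3) and Pim1 (16.4) came down to near Stat3 (15.3). Lifr was at 10.1, Il6st at 6.94 and Jak1 at 6.43. Mut43 had the same order as Mut18, with Socs3 (33.5) and Pim3 (33.4) overlapping and Pim1 (17.7) next to Stat3 (15.6). These levels depend on the length taken for a gene: with the longest annotated transcript, the log2 level of Stat3 in WT was 4.30 instead of 3.65. On that length Pim1 (33.9) and Socs3 (33.7) traded places in WT, as did Il6st (7.65) and Lifr (7.63), while Stat3 kept its place below the targets. In the mutants Stat3 moved to the third place, above Pim1 and Gbx2, with 24.2 against 20.5 and 19.7 for Mut18 and 24.6 against 22.1 and 19.2 for Mut43, and Il6st instead of Jak1 was lowest.

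By the root mean square difference of log2 normalized counts centered over the 6 libraries, the genes most like Stat3 among 11076 compared were Mdm4 (0.02), Dlgap5 (0.02) and Acaca (0.02), of which Acaca lies on chromosome 11. The nearest genes were Kmt2c for Lifr, Kmt2b for Il6st, Hbp1 for Jak1 and Twf2 for Socs3. They were Hdac7 for Pim1, Syt9 for Pim3 and Zfp36l2 for Gbx2. No member was nearest to another member.

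The wider pathway was read from lists of 57 genes, 54 of them tested, of which 16 rose and 16 fell (background 48.0%, with 23.5% higher and 24.5% lower). The 16 that rose include the ligand gene Osm, which passed the filter on low counts only through the mutant libraries. The median log2 change of the tested list genes was -0.07, against -0.004 for all tested genes. By DESeq2, 13 list genes rose and 10 fell. With TMM factors from the other chromosomes than 11, 19 rose and 14 fell. Leaving out single libraries changed both counts too, so the counts of rising and of falling genes depend on these choices. On chromosome 11, edgeR called 4 of 7 list genes higher, Osm among them, and none lower. There, 1 gene, Stat5b, was lower at an unadjusted edgeR p under 0.05. Elsewhere 12 of 47 rose and 16 fell.

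Ligands and receptor chains of the IL-6 family mostly had low counts. Of 10 tested, 1, Osm, rose and 3 fell (background 23.5% higher, 24.5% lower). Oncostatin M (Osm, chromosome 11), another ligand of gp130, had raw counts of 2 and 0 in WT, 12 and 11 for Mut18, and 16 and 10 for Mut43. Its summed counts gave a mutant to WT ratio of 12.7 (95% exact counting interval 3.32 to 108), and the width of that interval reflects the 2 WT reads. The interval takes counting error alone and leaves out the spread between libraries. Osm met the minimum count of 10 only in mutant libraries, so it entered the test only through the group where it was high. The edgeR call of Osm therefore adds no support beyond these counts. Its receptor chain Osmr moved the other way, with a log2 fold change of -0.99 (SE 0.27, edgeR adjusted p = 0.00475) from 32.2 and 29.4 normalized counts in WT to 12.2 to 19.0 in mutants. The CNTF receptor chain Cntfr fell by 0.83 on the log2 scale. The call of Osmr, but not that of Cntfr, was lost without WT_1. Lif itself (chromosome 11) had 98.6 and 77.4 normalized counts in WT and 74.3 to 93.1 in mutants (log2 fold change -0.13, edgeR adjusted p = 0.528). Cntf and Il6 were too low to be tested. With a minimum mean of 50 normalized counts Osm dropped out and none rose.

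Of 9 other JAK kinases and STAT factors, 4 rose and 1 fell (background 23.5% higher, 24.5% lower). Stat2, a factor of the interferon response, rose by 0.67 on the log2 scale (SE 0.08, edgeR adjusted p = 1.33e-06), from 312 and 347 normalized counts in WT to 477 to 574 in mutants. Jak3 rose by 0.41, Stat6 by 0.25 and Tyk2 by 0.22. The chromosome 11 genes Stat5a and Stat5b gave log2 fold changes of 0.40 and -0.37 and did not pass (edgeR adjusted p = 0.148 and 0.0738).

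Of 14 inhibitors of JAK-STAT signaling, 4 rose and 3 fell (background 23.5% higher, 24.5% lower). The SOCS family member Socs5 fell by 0.81 on the log2 scale, from 215 and 220 normalized counts in WT to 108 to 131 in mutants (edgeR adjusted p = 2.08e-06). Cish, a target of STAT5 in many cells, fell by 0.53, and Socs6 fell by 0.18. Socs7, on chromosome 11, rose by 0.47. The phosphatase genes Ptpn6 and Ptpn2 rose by 0.39 and 0.14, and Pias4, which encodes a SUMO ligase, rose by 0.21. Without WT_1, 2 rose and 1 fell, and by DESeq2 1 fell. Socs3 was therefore not joined in its direction by all members of its family.

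Of 9 other STAT3 targets in stem cells, 3 rose and 3 fell (background 23.5% higher, 24.5% lower). Klf4, a pluripotency factor, rose by 0.32 on the log2 scale, from 801 and 824 normalized counts in WT to 939 to 1066 in mutants (edgeR adjusted p = 9.45e-05). Bcl3 rose by 0.28, and Tfcp2l1, a self-renewal factor under LIF, rose by 0.25. The immediate-early gene Junb fell by 0.54, from 731 and 764 to 487 to 578 (edgeR adjusted p = 2.01e-06). Ier3 and Zfp36, which are also immediate-early genes, fell by 0.42 and 0.27. Klf5, Myc and Pramel7 did not pass, with log2 fold changes of 0.12, -0.06 and -0.11. By DESeq2, 2 genes of this list fell instead of 3, and leaving out single libraries changed the counts of both rising and falling genes.

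The largest change in the whole set of pathway genes with ample counts was in Pim2, the third kinase of the Pim family, on the X chromosome. It had 2941 and 3369 normalized counts in WT, 910.1 and 812 for Mut18, and 704 and 757 for Mut43. The gap between WT and mutants was wide at every library, with a log2 fold change of -1.99 ± 0.07 (SE, edgeR adjusted p = 5.77e-15). All members of the Pim family were therefore lower in the mutants, by 1.99 for Pim2, 0.67 for Pim1 and 0.29 for Pim3 in size on the log2 scale. Gbx1, the paralog of Gbx2, had 5.07 to 13.0 normalized counts over the 6 libraries and was not tested.

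**Figure D5:**
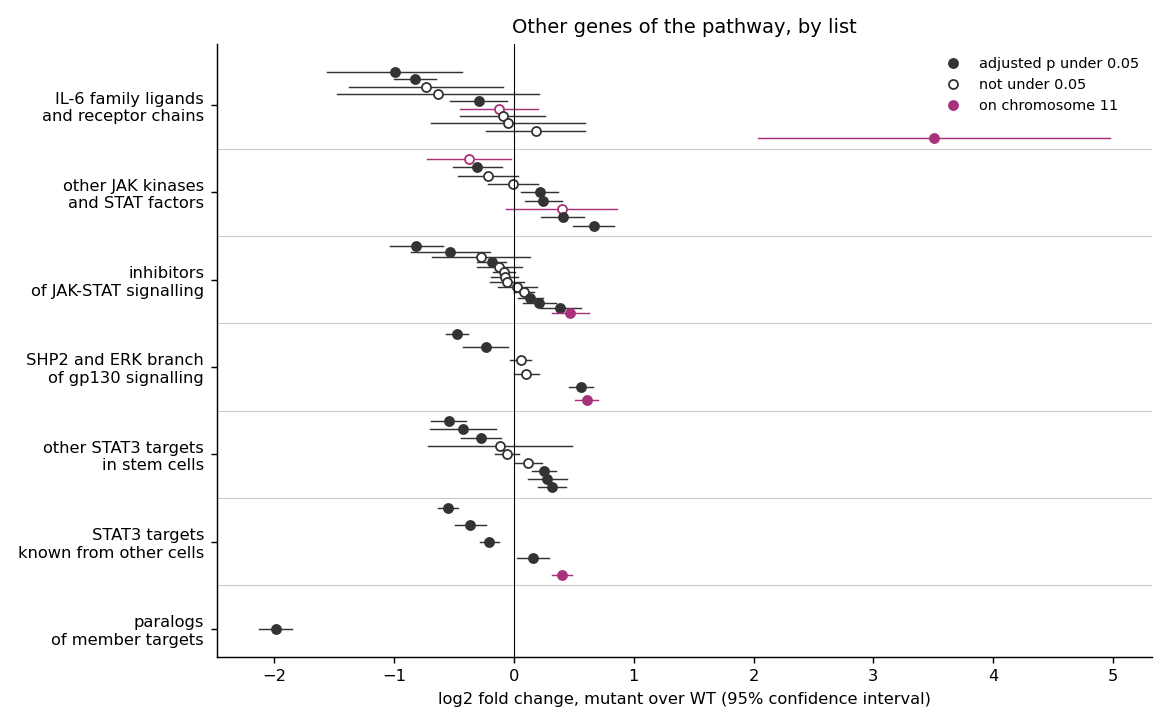
Log2 fold change of mutants over WT (horizontal axis) with 95% confidence intervals for the 54 tested list genes, grouped by list and sorted within it, filled where the edgeR adjusted p is under 0.05 and purple on chromosome 11. Most genes lie within 1 log2 unit of 0 on either side, Pim2 lies at -1.99 and Osm at 3.50 with a wide interval. Osm passed the filter on low counts only through the mutant libraries.

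The stem cell label was checked with markers. Pou5f1, Sox2, Nanog, Zfp42 and Esrrb summed to between 34342 and 35880 normalized counts in WT and between 40074 and 42270 in mutants. Of these 5 markers 4 were higher and Pou5f1 was lower (background 23.5% higher, 24.5% lower). Of 8 markers of fibroblast feeder cells, 7 were tested and 5 fell (background 24.5% lower), with a median log2 change of -0.69. None was at 0 in every library. They summed to 4063 in WT_1 and 2806 in WT_2, against 1874 to 2489 in mutants. Feeder transcripts were thus higher in WT, most of all in WT_1, the library without which Jak1 and Socs3 did not pass, and their part in the changes above was not tested. In such bulk libraries fewer cells of a type and less RNA per cell cannot be told apart.

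ATAC-seq, which maps open chromatin by transposase insertion, gave a readout that did not enter the choice of the genes. Of the 8 genes, 7 had a peak within 1000 bp of an annotated start in all 6 libraries, compared with 64.1% of 21924 genes. The exception was Lifr, whose promoter peak was listed in WT_1 and in the second Mut18 library only, at fold enrichments of 4.10 and 3.51 over local background, although Lifr rose in expression. Within Lifr, a region at chr15:7132750-7133074 was open in all 6 libraries, with fold enrichments of 6.16 and 7.65 in WT, 9.11 and 9.39 for Mut18, and 9.60 and 9.64 for Mut43, which are not on a common scale between libraries. All mutant values were above both WT values at 14.5% of 48984 regions listed in all 6 libraries, and this region was singled out after its values were seen. The peak around the Lifr STAT motif had fold enrichments of 5.80 and 5.26 in WT and 5.32 to 6.09 in mutants, which overlapped.

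Fold enrichments of separate peak calls are not on a common scale, so each promoter peak was also placed by its percentile in the list of its own library. The Pim1 peak was at percentiles 13.0 and 9.71 in WT, 21.0 and 24.0 for Mut18, and 23.8 and 31.1 for Mut43. It stood higher in every mutant library while Pim1 transcripts fell. The Jak1 peak was also higher in all mutants (88.4 and 92.7 in WT, 93.8 to 96.9 in mutants), and so was that of Pim2 (64.9 and 62.5 in WT, 73.2 to 78.6 in mutants), and transcripts of both fell. The Il6st peak was lower in the full lists (59.9 and 68.4 in WT, 40.2 to 57.7 in mutants) while its transcripts rose. Such a separation of WT and mutants was found at 13.5% of 14046 promoters in the higher and 10.6% in the lower direction. These places depend on the length of the lists, and with the 63588 peaks of lowest q from every library the peaks of Pim1 (6.76 to 7.87 in WT, 18.3 to 28.7 in mutants), Jak1 and Pim2 were still higher in all mutants, that of Gbx2 became so (2.49 to 5.03 in WT, 5.67 to 10.9 in mutants), and that of Il6st overlapped (50.4 to 66.5 in WT, 33.6 to 54.4 in mutants). Of 13694 promoters 2740 were then higher and 766 lower. With the full lists, peaks of Stat3, Socs3, Pim3 and Gbx2 overlapped between WT and mutants, with Stat3 at 68.7 and 72.4 in WT against 66.3 to 76.4 in mutants.

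The 300-base promoters of Socs3 and Pim1 are shown because they belong to the target that rose with Stat3 and to the target that fell most. They are RefSeq sequences of GRCm38.p6 that run from upstream of a start to just past it, written 5′ to 3′ on the strand of the gene, minus for Socs3 and plus for Pim1. Capitals mark a match to TTCNNNGAA, which occurs in 8.3% of 32851 RefSeq promoters.
Socs3, chr11:117969317-117969616: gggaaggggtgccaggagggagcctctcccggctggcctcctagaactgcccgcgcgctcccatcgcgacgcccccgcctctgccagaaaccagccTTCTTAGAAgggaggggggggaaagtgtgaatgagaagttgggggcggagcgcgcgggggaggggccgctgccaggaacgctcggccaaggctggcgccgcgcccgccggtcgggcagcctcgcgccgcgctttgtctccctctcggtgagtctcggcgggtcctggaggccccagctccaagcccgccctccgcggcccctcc
Pim1, chr17:29490535-29490834: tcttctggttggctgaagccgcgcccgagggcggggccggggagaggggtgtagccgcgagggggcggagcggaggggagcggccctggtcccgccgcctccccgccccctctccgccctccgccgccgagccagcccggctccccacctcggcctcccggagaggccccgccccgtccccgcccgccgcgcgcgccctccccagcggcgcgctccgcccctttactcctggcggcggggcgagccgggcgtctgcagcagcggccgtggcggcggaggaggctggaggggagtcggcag
The Socs3 match begins at position -154 relative to the start, and the Pim1 promoter holds none. Of the 8 genes only Socs3 had a match in a RefSeq promoter.

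Around the 8 genes, 36 peak regions lay in the gene or within 10 kb, and 21 of them (58.3%) were open in all 6 libraries, against 54.7% of all 89596 regions. One region was listed in both WT and no mutant library, at chr1:89923259-89923741 in the flank of Gbx2, with fold enrichments of 3.40 and 3.61. No region was listed in all mutants and neither WT library. Among all regions 2913 were of the first kind and 657 of the second.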

How the data were processed

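The authors sequenced paired-end mRNA-seq libraries and deposited raw read counts per gene symbol, with mm10 joined to dm6 as reference. Submitters' processing notes name STAR, SAMtools and DESeq2. The counting program, annotation and strand setting are not given in the sources used here. The ATAC-seq peaks were deposited by library (63588 to 78536 peaks) with the fold enrichment, the −log10 p and q and a score from MACS2, and no read numbers. ChIP-seq was not analysed here.

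Totals ran from 14992756 to 15143998 counts per library. Between libraries of a line the chi-square per gene was 3.19 in WT, 2.03 in Mut18 and 1.78 in Mut43, where counting error alone gives 1. Counts were scaled by TMM, filtered (minimum count 10, minimum total 15) and tested with edgeR 4.0.16 by its quasi-likelihood F-test, with Benjamini-Hochberg adjustment over 14061 genes. WT (n = 2) was compared with both clones (n = 4), and each clone in a fit of 3 lines. Intervals are 95%. Ratios within a library, with a pseudocount of 1, were tested by exact two-sided permutation. The labels give the libraries of a line only a replicate number. The paper calls them biological duplicates without saying what was separate, and p-values measure only the spread between these libraries. The fit was also run on simulated counts, in which far fewer genes changed than were called here and no chromosome was shifted. That run therefore does not bear on the calls in these data.

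Members and lists were chosen with earlier results of these data known. Named were all members, of each list the genes beyond 2-fold, the 3 largest changes and those on chromosome 11, the genes most like a member and the neighbors of Stat3. Other list genes were named after their values had been seen, and some are not reported here. Coordinates are from GENCODE M21 (GRCm38), to which 16122 symbols were matched. Peaks overlapping by 1 bp were merged. Alternatives included DESeq2 1.42.0, other scalings, filters and the omission of each library.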

Additional observations from a re-analysis of the deposited data

How the results depend on the processing

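No change of the 8 genes against WT and no Stat3 ratio reversed its direction under any alternative. Differences between the clones, none of which passed, changed sign under some alternatives for Il6st, Stat3, Socs3 and Gbx2. The order of levels changed with the longest transcript. Over the comparisons of WT with both clones and with each clone, 280 alternative values of the 8 genes were computed, of which 263 kept direction and call and 17 kept direction but no longer passed. For WT against both clones these were Jak1 and Socs3 without WT_1, and the others were values of Jak1, Socs3, Il6st or Pim3 against single clones, where Jak1 and Socs3 lost their calls in both clones by DESeq2 and without WT_1. Without 1 library, the count of falling members in Mut43 ranged from 2 to 4 (2 without Mut43_2, where Jak1 and Pim3 did not pass), and that of falling list genes from 8 to 17. The count of rising list genes also changed with the library left out. DESeq2 gave 13 rising and 10 falling list genes instead of 16 and 16. TMM factors from the other chromosomes than 11 gave 19 and 14. The distance from the chromosome 11 median ranged from -0.143 to -0.0116 for Stat3 and from -0.255 to -0.184 for Socs3 over the omitted libraries. The log2 level of Stat3 with the longest transcript was 4.30, and TTCNNNGAA instead of TTCCNGGAA was found at 5 instead of 3 genes. With the same number of peaks from every library, 3 promoter peaks instead of 2 stood higher in all mutants and none instead of 1 lower. The cause of these shifts was not tested.

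Replicate numbers did not pair the libraries: deviations of same-numbered libraries correlated at -0.05, 0.003 and -0.03. With the replicate number as a block, Stat3 kept its log2 fold change of 0.30 (edgeR adjusted p = 1.95e-05), 4 members rose and 4 fell in every comparison with WT, and 15 list genes fell instead of 16. With 2 libraries a line, small differences between the clones could not be resolved.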

Other observations

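The second branch below gp130 runs through SHP2 and the ERK kinases. Of its 6 listed genes 2 rose and 2 fell (background 23.5% higher, 24.5% lower). Grb2 (chromosome 11), an adaptor that couples receptors to Ras, had 1389 and 1390 normalized counts in WT and 2038 to 2188 in mutants, a log2 fold change of 0.61 (SE 0.04, edgeR adjusted p = 9.28e-10) that lies above the chromosome 11 median of 0.39. Gab1, a docking protein for SHP2, rose by 0.56 on the log2 scale, from 5961 and 5901 normalized counts in WT to 8228 and 8357 in Mut18 and 9068 and 9328 in Mut43. The adaptor Shc1 went the other way, from 1869 and 1783 in WT to 1291 to 1347 in mutants (log2 fold change -0.47, edgeR adjusted p = 1.55e-08), and the exchange factor Sos2 fell by 0.24, a call lost without WT_1, WT_2, Mut43_1 or Mut43_2, by DESeq2, with the replicate block, without the filter and with TMM factors from the other chromosomes than 11. Ptpn11, the gene of SHP2, had a log2 fold change of 0.06 (edgeR adjusted p = 0.275).

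Targets of STAT3 known from other cells were all called, 2 higher and 3 lower (background 48.0% called, 23.5% higher and 24.5% lower). Ccnd1, the gene of cyclin D1, had 3041 and 3041 normalized counts in WT and 2029 to 2144 in mutants (log2 fold change -0.55, edgeR adjusted p = 7.92e-10). The survival genes Bcl2l1 and Mcl1 fell by 0.36 and 0.20 on the log2 scale. Birc5, the gene of survivin on chromosome 11, rose by 0.40, which is close to the median of that chromosome. Icam1 rose by 0.16 (edgeR adjusted p = 0.045), a call lost without WT_1, Mut43_1 or Mut43_2, by DESeq2, with library totals or upper quartile scaling, and with a minimum mean of 50 normalized counts.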
